A study of Mus musculus with 16 samples.

Results

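Genes of MHC class II antigen presentation and of B cells were followed in CD4+ T cells sorted from mouse spleen, a population that is not known for expressing most of them. The set held 10 genes of 19531 measured. Of these, 5 belong to the class II pathway (Cd74, H2-Aa, H2-Ab1, H2-Eb1 and Ciita) and 5 are known from B cells (Cd79a, Ms4a1, Cr2, Cd72 and Blk). Each was read from the probe set that the platform annotation ties to exactly that symbol, and where a gene has several, from the one with the highest mean over the 16 arrays. Every one of the 10 had 1 such probe set, so no choice was needed. The genes themselves were picked from earlier results on these same arrays, with their levels on all 16 in view, so their values are a description and the tests below are not independent support. Cd74 exceeded the filter given below on 13 arrays, Cd72 on 10 and H2-Eb1 on 16. That filter is a percentile of all values and not a limit of detection.

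RNA came from male mice 6 weeks old, in 8 groups of 2 arrays each. The groups crossed the sorted population with the reporter allele and the genetic background. Regulatory T cells (Treg) were sorted as CD3+, CD4+, GFP+ and conventional T cells (Tconv) as CD3+, CD4+, GFP-, each sorted again for purity. All mice carried GFP at Foxp3, the gene of the defining transcription factor of Treg. In the Foxp3-GFP line (fusion below) GFP is joined to the Foxp3 protein, and in the Foxp3-IRES-GFP line (ires below) it is made as a separate protein. Each line was studied on B6 and on NOD, a strain that develops autoimmune diabetes. The labels call the arrays of a group duplicates without saying if they stand for different mice or pools. The p-values then measure only how far these duplicates differ, which may be a technical spread. Levels are log2 intensities, and their precision is limited by the number of arrays.

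MHC class II molecules are pairs of an alpha and a beta chain that show peptides to CD4+ T cells. Cd74, the invariant chain, guides the newly made pair through the cell and keeps its groove closed. Ciita, the class II transactivator, switches these genes on together by docking on factors bound at the X and Y boxes of their promoters. B cells and dendritic cells transcribe them constantly, while mouse T cells, unlike activated human ones, are not known for making them. Cd79a is the signalling chain of the B cell receptor, Ms4a1 encodes the surface protein CD20, Cr2 the complement receptor CD21, Cd72 an inhibitory receptor and Blk a Src family kinase.

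Promoter sequence is shown for H2-Aa and H2-Eb1, whose highest values fell on the same array, and for H2-Ob, a class II related gene that differed between strains. None of the 3 held an exact match to both sets of letters searched. Near matches were not searched, so a missing match does not mean a missing box. The RefSeq promoter table (GRCm38.p6) had entries for 5 of the 10 genes (H2-Aa, H2-Eb1, Cd79a, Cr2 and Cd72). Given below are the 100 bases before the start of H2-Aa (chr17:34287824-34287923, minus strand), H2-Eb1 (chr17:34305767-34305866, plus strand) and H2-Ob (chr17:34238805-34238904, plus strand). Capitals mark a match to the Y box letters CTGATTGG in the first pair and to the X box letters CCTAGNNAC in the last.
H2-Aa: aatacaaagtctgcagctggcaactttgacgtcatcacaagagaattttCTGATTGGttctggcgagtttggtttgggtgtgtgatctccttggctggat
H2-Eb1: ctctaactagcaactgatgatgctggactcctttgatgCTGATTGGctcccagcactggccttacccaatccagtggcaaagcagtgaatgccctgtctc
H2-Ob: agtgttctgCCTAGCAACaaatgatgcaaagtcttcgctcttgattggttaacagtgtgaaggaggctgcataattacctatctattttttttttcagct

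The Y box letters began at position -51 from the start in H2-Aa and at -62 in H2-Eb1, in the sense direction of both. Over the 250 bases before the start, on either strand, they were in 3.83% of all 32851 promoters of the table. The X box letters, found in H2-Ob at -91 and in Cr2 at -94, were in 3.37%. The B cell motifs CCCNNGGGA (EBF) and ATGCAAAT (octamer) were in 5.60% and 1.60% of promoters and in none of the 5 entries. A match is a description of the letters and not of binding.

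The sorted populations matched their labels at the defining genes. Foxp3 stood at 11.37 to 12.16 on the 8 Treg arrays and at 7.01 to 8.18 on the 8 Tconv arrays. Cd3e (11.03 to 11.84) and Cd4 (11.04 to 11.72) were bright on all 16. Median intensity per array lay between 86.7 and 99.0 on the linear scale. A gene was tested if it exceeded log2 6.06, the 40th percentile of all values, on at least 2 arrays, which left 12798 genes. Of the 10 genes 6 passed (Cd74, H2-Ab1, H2-Eb1, Ciita, Cd72 and Blk). H2-Aa and Cr2 were above 6.06 on 1 array each, Cd79a and Ms4a1 on none, and these 4 are given by their values. Passing depends on being high in some group, so the 6 do not stand for all 10.

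**Figure D1:**
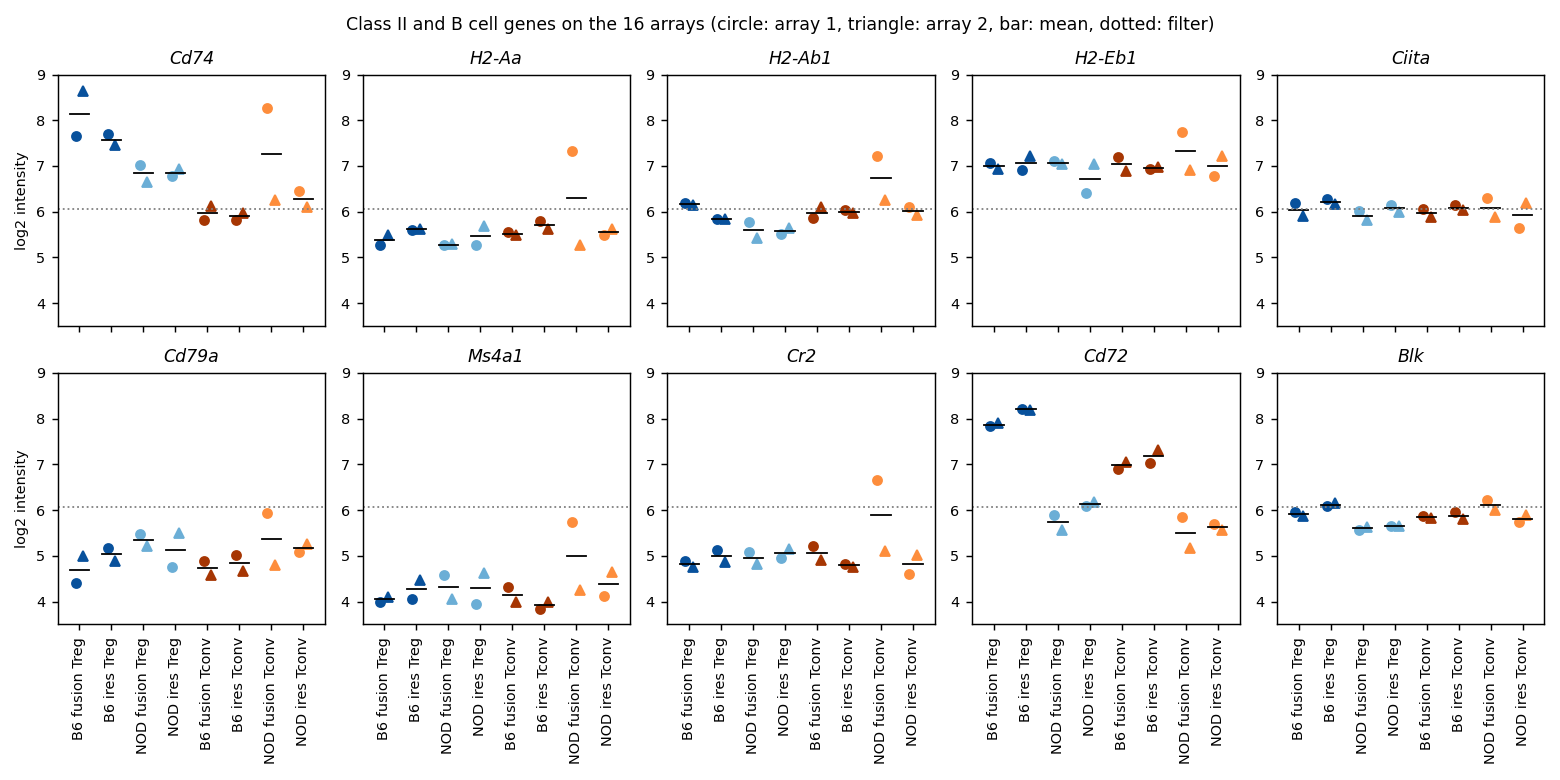
Log2 intensity (vertical axis, same range in each panel) of the 10 genes in the 8 groups (horizontal axis), with a circle for array 1, a triangle for array 2, a bar for the group mean and a dotted line at the filter of 6.06. Cd72 is higher in B6 than in NOD in both cell types, and Cd74 is higher in B6 Treg than in B6 Tconv and NOD Treg. The other panels vary less apart from the circle of NOD fusion Tconv, with H2-Ab1 and Blk lower in NOD Treg than in NOD Tconv.

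The clearest pattern within the set was a single array. NOD fusion Tconv array 1 held the highest of the 16 values for 8 of the 10 genes, all but Cd74 and Cd72. The margin was small for Ciita (6.30, second highest 6.27) and Blk (6.23, second highest 6.16). The share of all genes with their highest value on that array was not counted. H2-Aa, the class II alpha chain, read 7.33 there and 5.26 on array 2 of the same group. Its other 14 values ran from 5.26 to 5.79, so the gene was flat elsewhere. Cr2 read 6.66 against 5.11 on array 2, and the second highest of all its values was 5.22. Ms4a1 read 5.75 against 4.25, with a second highest value of 4.65. These B cell genes were thus lifted on 1 array and stayed in a narrow band on the rest.

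The same array was higher than its partner for all 10 genes. The difference was at least 1 on the log2 scale for 5 of them (H2-Aa 2.07, Cd74 2.02, Cr2 1.55, Ms4a1 1.51 and Cd79a 1.13), where 0.0870% of all 19531 genes differed as much in that direction. It was at least 0.5 for 8, against 2.09% of all genes. H2-Ab1, the beta chain partner of H2-Aa, differed by 0.94 and H2-Eb1 by 0.81. The smallest differences were those of Cd72 (0.70), Ciita (0.41) and Blk (0.21). Ranked over all genes, H2-Aa and Cd74 held places 1 and 2, Cr2 and Ms4a1 places 4 and 5, and Cd79a place 8. In the other 7 groups the largest difference was that of Cd74 in B6 fusion Treg, at -0.96, near the bottom of all genes (rank 19527). Differences of at least 0.5 in either direction were found there for 2 genes, in NOD fusion Treg for 1, in NOD ires Tconv for 2 and in NOD ires Treg for 3, and in the remaining groups for none. The share of all genes that differed as much in these 7 groups is not given here, so the counts cannot be set against it.

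B cell markers outside the set were also higher on that array. Of 25 other B cell markers measured, 23 were higher on NOD fusion Tconv array 1 than on array 2, and 11 by at least 0.5 (median 0.39, against -0.01 for all genes). Fcer2a, which encodes CD23, read 6.02 against 4.64, and Bank1, a B cell adaptor, 6.07 against 5.01. Cd180, a B cell Toll-like receptor homologue, read 5.68 there and at most 5.03 on the other arrays. Jchain, the joining chain of secreted antibodies, read 5.43 against 3.56. The summed intensity of the 25 genes was 4178 against 3894 in that group, and 3907 and 3976 in NOD ires Tconv. Of 14 T cell markers measured, 6 were higher on array 1, with a median of -0.01. Among 18 class II pathway genes outside the set, 9 were higher, 1 by at least 0.5, with a median of 0. Of 19 macrophage, monocyte and granulocyte markers 14 were higher on array 1, 5 by at least 0.5 (median 0.28). The next highest median of that list was 0.1, in NOD fusion Treg. Of 15 dendritic cell markers 13 were higher on array 1 (median 0.22) and of 7 red cell and platelet markers 7 (median 0.21). The dendritic cell list and the red cell and platelet list were about as high on array 1 in some other groups, with dendritic cell markers at 13 of 15 in B6 fusion Treg (median 0.21) and red cell and platelet markers at 7 of 7 in B6 fusion Treg (0.21) and B6 ires Tconv (0.35). The B cell markers came closest in NOD fusion Treg, where 20 of 25 were higher on array 1 and 3 by at least 0.5 (median 0.25). In NOD fusion Tconv, plasma cell markers had 5 of 8 higher (median 0.08), and markers of CD8 T, gamma-delta T and NK cells 5 of 13 (median -0.10). The part of these cells in the array's values was not tested. In sorted bulk samples, more cells of a type and more RNA per cell cannot be told apart. The main differences of the 10 genes that use NOD fusion Tconv are therefore given below with and without array 1.

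**Figure D2:**
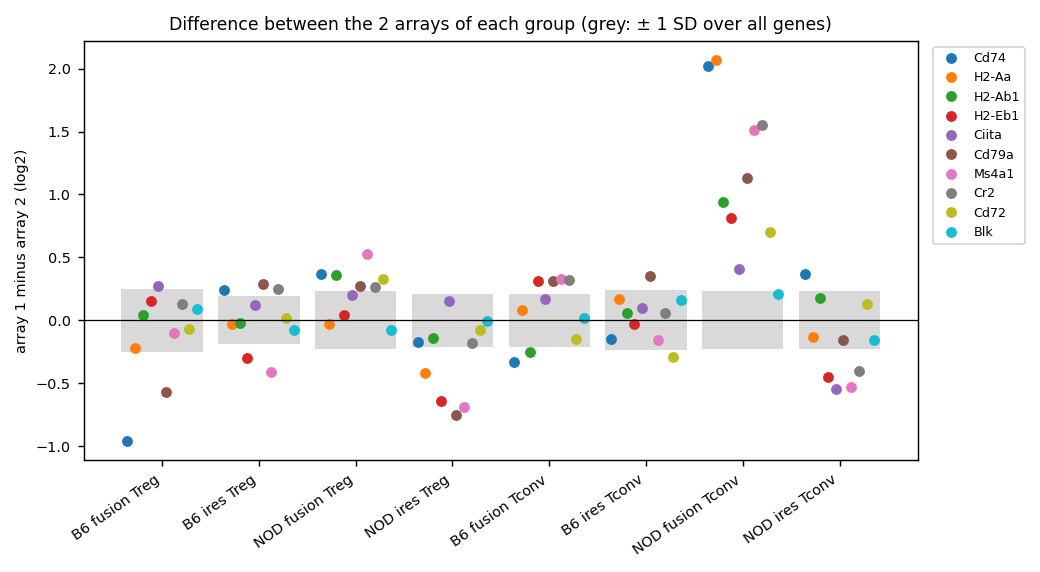
Array 1 minus array 2 (log2, vertical axis) for each of the 10 genes in each group (horizontal axis), with a grey band of 1 SD of the same difference over all 19531 genes. In NOD fusion Tconv all 10 genes lie above 0, with a median of 1.04, while the other groups have medians between -0.18 and 0.26.

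Cd74 was higher in Treg than in Tconv in both B6 lines and lower in NOD than in B6 Treg. In Treg it read 7.66 and 8.63 in B6 fusion, 7.69 and 7.45 in B6 ires, 7.02 and 6.65 in NOD fusion, and 6.77 and 6.94 in NOD ires. In Tconv it read 5.81 and 6.13 in B6 fusion, 5.82 and 5.97 in B6 ires, 8.27 and 6.25 in NOD fusion, and 6.46 and 6.10 in NOD ires. Over all arrays Treg and Tconv overlapped, through NOD fusion Tconv array 1 at 8.27. Without that array, all 8 Treg arrays lay above all 7 Tconv arrays, whose highest was 6.46. The share of all genes with such a gap was not counted. By group means the order ran from B6 fusion Treg (8.14) and B6 ires Treg (7.57) through NOD fusion Tconv, NOD ires Treg (6.86) and NOD fusion Treg (6.83) to the remaining Tconv groups (6.28, 5.97 and 5.89). The arrays of neighbouring groups overlapped at each step but one, that from NOD fusion Treg to NOD ires Tconv.

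In B6, Cd74 was higher in Treg by 1.92 ± 0.29 (limma, adjusted p = 5.10e-05), with no overlap between the 4 Treg and the 4 Tconv arrays. Such a gap in this direction was found for 14.1% of all genes tested. In B6, 2 of the 6 genes tested, Cd74 and Cd72, were called higher in Treg and 0 lower, where 14.1% and 6.74% of all genes tested were. In NOD the difference was 0.07 ± 0.29 (adjusted p = 0.918) over all arrays. It was 0.58 without NOD fusion Tconv array 1 and -0.43 without array 2 of that group, so its sign depended on the array kept. Over the 4 lines it was 1.00 ± 0.20 (adjusted p = 0.000832), 1.25 without NOD fusion Tconv array 1 and 0.75 without array 2. Line by line, Treg minus Tconv was 2.17 in B6 fusion, 1.68 in B6 ires, -0.43 in NOD fusion and 0.57 in NOD ires, so both B6 lines showed a larger rise than NOD ires.

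For the chains that Cd74 accompanies, no difference between Treg and Tconv was called in B6. H2-Aa differed between Treg and Tconv by -0.13 in B6 fusion, -0.08 in B6 ires, -1.02 in NOD fusion and -0.08 in NOD ires, all without a test. Over both NOD lines it was -0.55, and -0.03 when array 1 of NOD fusion Tconv was left out. The B cell genes not tested differed in B6 by 0.08 (Cd79a), 0.13 (Ms4a1) and -0.02 (Cr2), and in NOD without that array by 0.25, -0.01 and 0.04. In B6, H2-Ab1 differed by 0.01 ± 0.15 (adjusted p = 0.970) and H2-Eb1 by 0.03 ± 0.16 (adjusted p = 0.918). Ciita, the shared transactivator, differed by 0.10 ± 0.12 (adjusted p = 0.656) in B6 and by -0.02 ± 0.12 (adjusted p = 0.959) in NOD, or 0.09 ± 0.13 without that array (adjusted p = 0.749). Its 16 values spanned only 5.65 to 6.30, and 7 of them passed the filter.

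H2-Ab1 ran the other way in NOD. It read 5.78 and 5.43 in NOD fusion Treg and 5.51 and 5.65 in NOD ires Treg, against 7.21 and 6.26 in NOD fusion Tconv and 6.10 and 5.92 in NOD ires Tconv. All 4 NOD Treg arrays were thus below all 4 NOD Tconv arrays, as they were for 11.0% of all genes tested. The difference of -0.78 ± 0.15 passed the test (adjusted p = 0.000627), and did so without NOD fusion Tconv array 1 (-0.54 ± 0.11, adjusted p = 0.00145). In NOD, 2 of the 6 genes were called lower in Treg, H2-Ab1 and Blk, where 7.63% of all genes tested were, and 1 was called higher (Cd72) against 10.8%. Over the 4 lines H2-Ab1 differed by -0.38 ± 0.10 (adjusted p = 0.00777; -0.27 ± 0.07 without the array). With Cd74 and Cd72 it made 3 called genes of 6, 2 higher and 1 lower, where 28.6% of all genes tested were called, 16.7% higher and 11.9% lower. Blk fell by 0.34 ± 0.08 in NOD (adjusted p = 0.00649) and differed by -0.28 ± 0.09 without the array (adjusted p = 0.0437). Its levels, at 5.56 to 6.23, were above the filter on only 3 of the 16 arrays, and in NOD Treg they were below it at 5.56 to 5.66. H2-Eb1, the beta chain of the second class II molecule, was above the filter on all 16 arrays (6.40 to 7.74) and differed by -0.26 ± 0.16 in NOD (adjusted p = 0.320). Without NOD fusion Tconv array 1 it differed by -0.06 ± 0.15 (adjusted p = 0.864), and without array 2 by -0.47 ± 0.15, which passed (adjusted p = 0.0410).

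**Figure D3:**
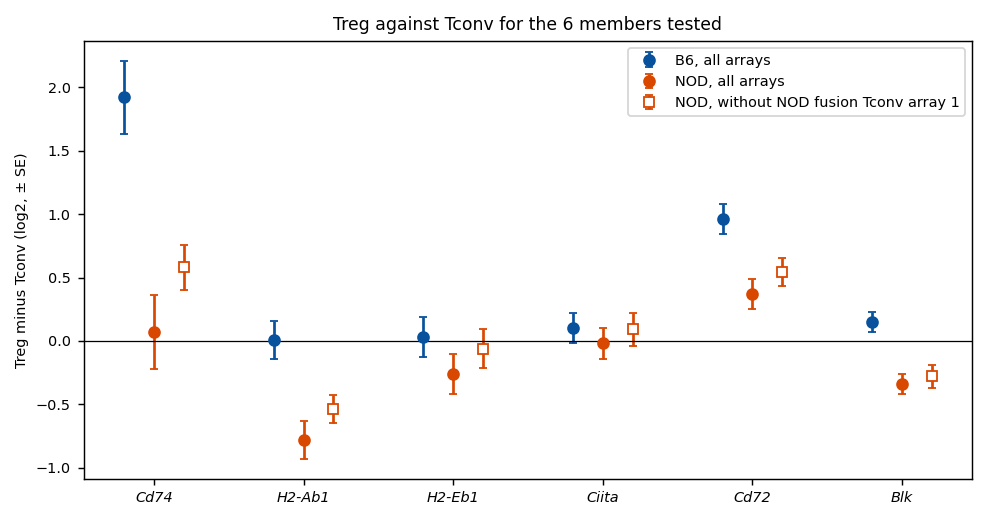
Treg minus Tconv (log2, vertical axis, bars of 1 SE from the linear model) for the 6 genes tested, in B6 and NOD with all arrays and in NOD without NOD fusion Tconv array 1. Cd74 moves from 0.07 to 0.58 in NOD when that array is left out, and stays below its B6 value of 1.92.

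Cd72 separated the strains. In B6 it read 7.84 and 7.90 in fusion Treg, 8.22 and 8.20 in ires Treg, 6.91 and 7.06 in fusion Tconv, and 7.03 and 7.32 in ires Tconv. In NOD it read 5.90 and 5.57 in fusion Treg, 6.10 and 6.18 in ires Treg, 5.85 and 5.16 in fusion Tconv, and 5.70 and 5.57 in ires Tconv. The lowest B6 array (6.91) was above the highest NOD array (6.18), a gap whose share among all genes was not counted. Within B6, the Treg arrays were all above the Tconv arrays, by 0.96 ± 0.12 (adjusted p = 1.00e-05). In NOD the difference of 0.37 ± 0.12 (adjusted p = 0.0466) was close to the threshold. It was 0.54 ± 0.11 (adjusted p = 0.00147) without NOD fusion Tconv array 1 and 0.19 (adjusted p = 0.282) without array 2 of that group. The call held without NOD fusion Treg array 2 or either B6 ires Tconv array. It was lost without any of the remaining arrays, with adjusted p between 0.0519 and 0.197. It was also lost with no filter (adjusted p = 0.0694), with arrays centred on the median (0.32, adjusted p = 0.0875) and with only the compared groups in the fit (adjusted p = 0.0997). Over the 4 lines Cd72 differed by 0.66 ± 0.09 (adjusted p = 8.07e-06), and by 0.75 ± 0.07 without NOD fusion Tconv array 1. In order of group means, ires Treg and then fusion Treg of B6 led (8.21 and 7.87) without overlap between them, followed by both B6 Tconv groups, which overlapped, and then the NOD groups.

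Compared with B6, NOD Treg had less Cd72 by -2.10 ± 0.12 (adjusted p = 1.64e-09), less Cd74 by -1.01 ± 0.29 (adjusted p = 0.0188) and less Blk by -0.39 ± 0.08 (adjusted p = 0.00291). H2-Ab1 lay at 5.43 to 5.78 in NOD Treg and at 5.83 to 6.19 in B6 Treg, a difference of -0.41 ± 0.15 (adjusted p = 0.0535). In all, 3 of the 6 genes were called lower in NOD Treg and 0 higher, where 9.82% and 11.2% of all genes tested were. Blk exceeded the filter only in B6 ires Treg (6.08 and 6.16) and on NOD fusion Tconv array 1 (6.23). It was thus tested because of its level in B6 Treg, and its place in this count is not independent of the difference. Without NOD fusion Tconv array 1, which enters only through the shared spread, the adjusted p of Cd74 was 0.000349. Its call was lost without B6 fusion Treg array 2 (-0.77, adjusted p = 0.0925), NOD fusion Treg array 2 (-0.92, adjusted p = 0.0638), B6 ires Treg array 1 (-0.95, adjusted p = 0.0561) or NOD ires Treg array 1 (-0.97, adjusted p = 0.0534), and with trend and robust variances (adjusted p = 0.111). H2-Ab1 passed without either NOD fusion Tconv array (adjusted p = 0.00645) and without NOD fusion Treg array 1 (adjusted p = 0.0368). This comparison and that of Treg with Tconv share the Treg arrays. Markers of other cells also differed here. Of 9 macrophage, monocyte and granulocyte markers tested, 3 were lower in NOD Treg and 0 higher (median -0.24). These 3 were Lyz2 (-0.60 ± 0.20), Vcam1 (-0.55 ± 0.15) and Itgam (-0.45 ± 0.13). Vcam1 exceeded the filter only in B6, and Lyz2 only in B6 Treg and on NOD fusion Tconv array 1. Both were thus tested through their levels in B6, for Lyz2 together with that array. Their place in this count is not independent of the difference. The summed intensity of the 19 such markers measured was 1499 to 1650 in B6 Treg and 1288 to 1530 in NOD Treg. Of 9 dendritic cell markers 2 were lower (Cd8a, -0.50 ± 0.12, and Sirpa, -0.36 ± 0.10) and 1 higher (Cst3, 0.58 ± 0.10). Of 13 other B cell markers 1 was higher and 0 lower. Their part in the differences of the set was not tested.

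In Tconv, Cd72 was the 1 gene called of the 6, lower in NOD by -1.51 ± 0.12 (adjusted p = 1.22e-07; -1.69 ± 0.11 without NOD fusion Tconv array 1), where 6.49% of all genes tested were called lower and 9.39% higher. Its strains did not overlap, as for 8.92% of all genes tested in this direction. Cd74 differed by 0.84 ± 0.29 (adjusted p = 0.0541) and H2-Ab1 by 0.38 ± 0.15 (adjusted p = 0.0779), values that include NOD fusion Tconv array 1. Without that array they were 0.33 ± 0.18 (adjusted p = 0.197) and 0.15 ± 0.11 (adjusted p = 0.331). Without array 2, so that array 1 alone stood for its group, they were 1.35 (adjusted p = 0.000129) and 0.62 (adjusted p = 0.00146). Of the genes not tested, Ms4a1 differed by 0.66, Cd79a by 0.48, Cr2 by 0.42 and H2-Aa by 0.31. Without array 1 these were 0.28, 0.19, 0.04 and -0.20. NOD carries another MHC haplotype than B6. The match of the probes to NOD sequence was not examined for any gene, Cd72 and H2-Ob included, so the strain differences given here are those of signal.

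The strain difference of Cd74 was itself compared between cell types. NOD minus B6 was lower in Treg than in Tconv by -1.85 ± 0.41 (adjusted p = 0.0347), and by -1.35 ± 0.24 (adjusted p = 0.0111) without NOD fusion Tconv array 1. It was the 1 gene of 6 called, where 0.570% of all genes tested were called lower and 0.250% higher. Without other arrays the call was lost in 9 cases, namely B6 fusion Tconv, B6 ires Tconv and NOD ires Tconv array 1, B6 fusion and NOD fusion Treg array 2, and both arrays of B6 ires and of NOD ires Treg. The adjusted p was then between 0.0561 and 0.137 and the difference between -1.91 and -1.61. Cd72 (-0.59 ± 0.18, adjusted p = 0.176), H2-Ab1 (-0.79 ± 0.21, adjusted p = 0.0953) and Blk (-0.49 ± 0.12, adjusted p = 0.0591) did not pass, nor did they without NOD fusion Tconv array 1 (-0.42, -0.56 and -0.44, adjusted p = 0.343, 0.115 and 0.164). Without array 2 of that group all 3 did, at -0.76, -1.03 and -0.54 (adjusted p = 0.0143, 0.00142 and 0.0466).

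The reporter alleles were compared within each cell type. By limma none of the 6 genes tested was called between fusion and ires in Treg or in Tconv, where 0.609% and 0.0234% of all genes tested were called. At an unadjusted p under 0.05 there was 1 of 6 in each, Cd72 in Treg and H2-Ab1 in Tconv. None of the alternatives tried called any. Cd72 was lower in fusion Treg by -0.37 ± 0.12 (adjusted p = 0.306), and within each background its fusion Treg arrays were below its ires Treg arrays. Cd74 differed by 0.28 ± 0.29 in Treg (adjusted p = 0.963) and by 0.53 ± 0.29 in Tconv (adjusted p = 0.999), where it was 0.02 ± 0.18 without NOD fusion Tconv array 1 (adjusted p = 0.998). Neither the difference of the allele effect between cell types nor, in Treg, that between strains gave a call among the 6 (0.0469% and 0.0391% of all genes tested). At an unadjusted p under 0.05 these had 1 and 0.

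Other genes of the class II pathway were read from a list of 20, of which 18 were measured and 15 tested. Between Treg and Tconv over the 4 lines 7 were higher and 1 lower, with a median of 0.19 against -0.01 for all genes tested, of which 16.7% were called higher and 11.9% lower. Without NOD fusion Tconv array 1 the counts were 6 and 1, with the same median. In B6 alone 7 were higher and 1 lower (median 0.24), against 14.1% and 6.74% of all genes tested. In NOD 5 were higher and 1 lower (median 0.13, or 0.17 without that array), against 10.8% and 7.63%. Cd83, which stabilises class II at the cell surface and marks activated T cells too, rose most (2.50 ± 0.07, adjusted p = 7.38e-15). Lgmn, an endosomal protease, rose by 0.92 ± 0.08 and H2-Ob, a chain of the peptide exchange inhibitor H2-O, by 0.82 ± 0.07. Rfx5, a subunit of the factor that binds the X box, rose by 0.59 ± 0.07. Ifi30, a lysosomal thiol reductase, fell by 0.59 ± 0.09. H2-Ea, the alpha partner of H2-Eb1, which B6 and NOD are known not to make, read 4.43 to 4.92 on all 16 arrays and was not tested.

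Among the 15 genes, H2-Ob had the largest strain difference in Tconv. It read 8.60 to 8.78 in B6 Tconv and 6.61 to 7.25 in NOD Tconv, and 9.04 to 9.37 against 7.84 to 8.27 in Treg. NOD was lower by -1.74 ± 0.10 in Tconv (adjusted p = 2.03e-09) and by -1.05 ± 0.10 in Treg (adjusted p = 1.28e-06). The difference between these was 0.69 ± 0.15 (adjusted p = 0.0288), and 0.65 without NOD fusion Tconv array 1 (adjusted p = 0.0807). H2-DMa, a chain of the peptide exchange catalyst, was lower in NOD by -0.44 ± 0.11 in Tconv and -0.55 ± 0.11 in Treg, and H2-Oa, the partner of H2-Ob, by -0.51 ± 0.12 in Treg. Lgmn was lower in NOD Tconv (-0.77 ± 0.11) and higher in NOD Treg (0.40 ± 0.11), and this change of direction passed the test of the difference (1.17 ± 0.16, adjusted p = 0.000575). In all, 2 of the 15 were higher and 5 lower in NOD Treg, and 0 higher and 3 lower in NOD Tconv, where 11.2% of all genes tested were called higher and 9.82% lower in Treg, and 9.39% and 6.49% in Tconv. Without NOD fusion Tconv array 1 the Tconv differences were -1.70 for H2-Ob, -0.79 for Lgmn and -0.47 for H2-DMa, all called, and 4 of the 15 were called lower in NOD Treg.

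**Figure D4:**
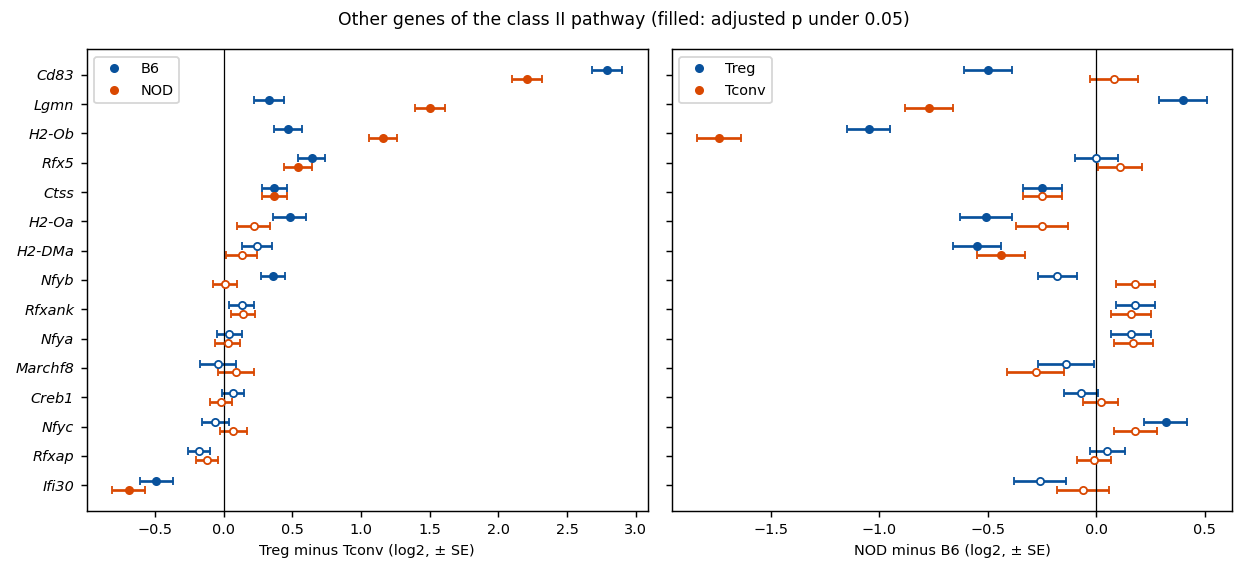
Log2 difference (horizontal axis, bars of 1 SE from the linear model, filled where the adjusted p was under 0.05) of the 15 other class II pathway genes tested, for Treg minus Tconv in B6 and NOD on the left and NOD minus B6 in Treg and Tconv on the right. Cd83 leads on the left at 2.79 in B6 and 2.21 in NOD, and H2-Ob is lowest on the right at -1.74 in Tconv.

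B cell markers outside the set were set beside the rise of Cd74 and Cd72 in Treg. Of 29 listed, 25 were measured and 13 tested, and 5 were higher and 2 lower in Treg over the 4 lines (median -0.03, and 0.07 with the same counts without NOD fusion Tconv array 1). Of all genes tested 16.7% were called higher and 11.9% lower. Those higher were Cxcr5 (1.37 ± 0.16), Fcmr (1.04 ± 0.10), Cd79b (0.69 ± 0.09), Fcrl1 (0.57 ± 0.07) and Cd37 (0.24 ± 0.06). Cxcr5 is also the follicle homing receptor of follicular T cells, and Cd79b is the partner chain of Cd79a in the B cell receptor. The coactivator gene Pou2af1 was lower by -0.84 ± 0.09, and Ralgps2 by -0.32 ± 0.07. Levels of B cell genes in B6 differed from gene to gene, and those given here were chosen after their values were seen. Cd79b read 7.41 to 7.75 in B6 Treg and 6.64 to 6.85 in B6 Tconv, without overlap, and Ighm, the IgM heavy chain, 6.16 to 6.57 and 6.20 to 6.59. Cd79a, Ms4a1, Pax5 and Ebf1 were below the filter in B6, with overlapping ranges. Cd79a read 4.41 to 5.18 in B6 Treg and 4.58 to 5.01 in B6 Tconv, and Ms4a1 at most 4.48 and 4.31. Pax5, the B cell identity factor, read 5.78 to 6.00 and 5.85 to 5.98, and Ebf1 4.21 to 4.59 and 4.44 to 4.92. The summed intensity of the 25 markers was 4124 to 4580 in B6 Treg, 4083 to 4518 in NOD Treg, 3646 to 3765 in B6 Tconv and 3894 to 4178 in NOD Tconv. Such a sum follows the brightest genes, and Cd37, at 10.69 to 11.18 over the 16 arrays, was the brightest of the 25. It therefore does not stand for B cell genes as a group. The part of these markers in the Cd74 difference was not tested.

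Within groups, the arrays were compared gene by gene. Over the 8 groups, the array with more Cd74 was also the one with more Cd72 in 8 of 8, the highest count among the 45 pairs of genes and singled out after the values were seen. For Cd74 and H2-Aa it was 3 of 8. Over all 16 arrays, H2-Aa and Cr2 had a Pearson r of 0.866 (Spearman rho 0.109), which was -0.0562 over the 15 arrays without NOD fusion Tconv array 1. For Ms4a1 and H2-Eb1 r was 0.811 (rho 0.668), and 0.584 without it. For Cd74 and Cd72 r was 0.364 (rho 0.315), and 0.515 without it. These values describe arrays that share cell sorts and strains, and no p is given.

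Among the 12798 genes tested, outside the set, those most like Cd74 over the 16 arrays by Pearson r were Dok1 (0.883), Pard6g (0.841), Dedd2 (0.823), Rrbp1 (0.806) and Cd79b (0.802). Without NOD fusion Tconv array 1 their r over 15 arrays was 0.923, 0.955, 0.922, 0.893 and 0.821. Those most like Cd79a were Mblac1 (0.769), Nfic (0.753), Ttll11 (0.719), Tmem106c (0.715) and Elp3 (0.700), and none of these is a marker in the lists used here. Without that array their r was 0.717, 0.596, 0.738, 0.656 and 0.519.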

How the data were processed

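Per the submitters' processing notes, the authors used Affymetrix Power Tools and RMA. Their versions and the annotation's build are not given in the sources. The values as deposited were linear intensities, and log2 was taken of them here with no pseudocount added. Of 25108 probe sets, 21157 had 1 gene symbol, 1341 several and 2610 none, giving 19531 genes (the probe set with the highest mean). Genes above log2 6.06 on at least 2 arrays were tested. The 16 arrays entered 1 limma fit (version 3.58.1, R 4.3.3) that gave each group its own mean and shared the spread, with 8 residual degrees of freedom and a prior worth 9.80. Tests were two-sided, with Benjamini-Hochberg adjustment over 12798 genes and a threshold of 0.05. Values after ± are the model's SE. The fit was tested on simulated data.

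Named were the 10 genes, up to 4 called genes per marker list, and the 5 genes most like Cd74 and Cd79a, with Foxp3, Cd4 and Cd3e to check the labels. The text leaves out some that this rule names, and names beyond it H2-Ea, H2-DMa, Pax5, Ebf1, Fcer2a, Bank1, Cd180, Ighm and a 5th called B cell marker, chosen after their values were seen. The 8 lists cover class II, B cell, plasma cell, dendritic cell, myeloid, CD8 T and NK, red cell and T cell genes. The genes and lists were chosen with earlier results of these data known. Promoters came from RefSeq (GRCm38.p6). Tables and plots used Python 3.11.15.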

Additional observations from a re-analysis of the deposited data

Results flagged for a closer look

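The strain difference of Cd74 depended on the cell type by the test of that difference. NOD minus B6 was -1.01 in Treg and 0.84 in Tconv, a difference of -1.85 ± 0.41 (limma, adjusted p = 0.0347). The Tconv value rests in part on NOD fusion Tconv array 1, at 8.27, and the difference was -1.35 without it (adjusted p = 0.0111). With trend and robust variances its adjusted p was 0.255, and over all alternatives the difference lay between -2.36 and -1.35.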

How the results depend on the processing

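Over 26 alternatives and 2540 values of single genes, no called difference changed sign, 30 lost the call and 20 gained it. Of the 2540, 2190 were called neither in the main fit nor in the alternative, genes not tested included. These had no call to lose, and 100 of them changed sign. The lost calls were mostly those of Cd72 for Treg against Tconv in NOD and of Cd74 for the strain effect in Treg minus that in Tconv. Cd74 and Cd72 in B6 Treg against Tconv, and Cd72 between strains, kept their calls under all 26. Of the 6 genes tested, those called for NOD against B6 in Tconv numbered 3 with arrays centred on the median and 4 with quantile normalization, where the main fit called 1, and 1 to 3 when an array was left out. For the strain effect in Treg minus that in Tconv they numbered 2 with quantile normalization, 0 with trend and robust variances and 0 to 4 when an array was left out, against 1. For Treg against Tconv in NOD the stricter filter called 1 against 3, because H2-Ab1 and Blk were no longer tested there. The cause of the other changes was not tested. Centring moved the median of all genes to 0.11 for NOD against B6 in Tconv, and the share of calls that were higher from 59.1% to 84.0% there, from 53.3% to 68.7% in Treg and from 65.4% to 78.7% for fusion against ires in Treg. Quantile normalization moved it from 67.7% to 53.3% for Treg against Tconv in B6 and from 30.5% to 41.5% for the strain effect in Treg minus that in Tconv.

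The evidence that replicate numbers pair the arrays was mixed, with 16 of 28 correlations between groups' array differences over 0.1 (median 0.146, lowest -0.371), so the main fit has no block. With a replicate block the strain effect in Treg minus that in Tconv called 2 of the 6, Cd74 and Blk (adjusted p = 0.0457), and H2-Ab1 passed for NOD against B6 in Treg (adjusted p = 0.0429). Over all genes, the difference of the allele effect between cell types called 16 with the block, 19 with trend and robust variances and 6 in the main fit. The allele effect in Treg, NOD minus B6, called 8 or 9 under 5 alternatives against 5, and fusion against ires in Tconv 6 with trend and robust variances against 3. With an array left out, counts over all genes ran from 2 to 18 for the first of these, 3 to 8 for the second, 2 to 12 for fusion against ires in Tconv (12 without NOD ires Tconv array 2) and 30 to 91 against 78 in Treg. They fell to 841 against 2033 for NOD against B6 in Tconv, without NOD ires Tconv array 1, and to 1597 against 2690 in Treg, without B6 ires Treg array 2. With 2 arrays a group, and levels near or below the filter for Ciita, Blk, H2-Ab1 and, in NOD, Cd72, small differences could not be resolved.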

Other observations

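Genes listed as markers of other cells also differed between Treg and Tconv. Cybb, a subunit of the phagocyte oxidase, was higher in Treg by 1.99 ± 0.11 (limma, adjusted p = 8.04e-11), and Hmox1 by 0.29 ± 0.07. These were the 2 higher of 9 tested macrophage, monocyte and granulocyte markers, with 1 lower (Fcgr3, -0.21 ± 0.07), which was not called without NOD fusion Tconv array 1. Of 9 dendritic cell markers 4 were higher and 0 lower, among them Ccr9 (0.86 ± 0.08), Irf8 (0.81 ± 0.07) and Cst3 (0.44 ± 0.07). Itgax, which encodes CD11c, read 5.04 to 5.39 on all 16 arrays and was not tested. Of 5 plasma cell markers 2 were higher, Xbp1 (0.71 ± 0.07) and Edem1 (0.30 ± 0.06). Of 8 tested markers of CD8 T, gamma-delta T and NK cells 2 were higher and 3 lower, with the protease gene Gzmb at 2.65 ± 0.19, the receptor gene Klrd1 at -2.35 ± 0.13 and the perforin gene Prf1 at -1.10 ± 0.07. Of 14 T cell markers 4 were higher and 6 lower, with Cd2 at 0.50 ± 0.06 and Trat1 at -0.55 ± 0.09. Of 4 tested red cell and platelet markers limma called 0, and 1 had an unadjusted p under 0.05. Over all genes tested, 16.7% were called higher and 11.9% lower.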
